A study of Homo sapiens with 4 samples.

Results

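The 34 genes described here encode the enzymes that make cholesterol and fatty acids, the proteins that switch those enzymes on and off, and carriers that move cholesterol inside and out of the cell. Probe sets were taken as members if the platform annotation names exactly 1 of these genes for them, which gave 71 of 54675 probe sets and 31 of the 34 genes. FDFT1, CYP51A1 and FADS1 had no such probe set and are not analysed here. The cells were SCP2, a human breast cancer line known as a bone-colonising subline of MDA-MB-231. The 4 groups were cells labelled as overexpressing DLC1 with TGF-beta, the same cells without TGF-beta, vector control cells with TGF-beta, and vector control cells without it. All 4 groups share the SCP2 background, and each was measured on 1 array, so no difference has a replicate check and no p-value is given. The TGF-beta dose and time, the construct's promoter and the number of clones are not stated by the labels.

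Cholesterol is built from acetyl-CoA through mevalonate, squalene and lanosterol. The transcription factors made from SREBF1 and SREBF2, called SREBPs, are held in the endoplasmic reticulum membrane with SCAP and the INSIG proteins while sterols are plentiful, and are carried to the Golgi and cut free when sterols run low. The SREBF2 product is known mainly for driving cholesterol genes and the SREBF1 product for fatty acid genes, while oxidised sterols act through the nuclear receptor LXR to raise the exporter ABCA1 and SREBF1. TGF-beta is a cytokine stored in bone matrix, and DLC1 is known as a tumour suppressor gene.

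Values are the authors' intensities on a linear scale in arbitrary units, and differences are on the log2 scale. A gene is represented by its brightest probe set on average. It was kept if its highest value reached 0.38, the median of all values, which left 30 members and 13137 genes in all. A gene is called higher or lower if it differed by at least 1.5-fold, which is 0.585 on the log2 scale. Rounding to 2 decimals makes ratios of the dimmest values coarse. In a bulk culture, fewer cells of a type and less RNA per cell cannot be told apart.

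The array medians were 0.38 to 0.39. The DLC1 transcript does not settle the labels. Its brightest probe set read 3.64 in the array labelled DLC1 against 2.51 in the vector array with TGF-beta, and 3.38 against 1.77 without it, while the next brightest read 1.69 against 2.41 and 1.44 against 1.79, and the remaining kept set, which is dim, 0.19 against 0.41 and 0.18 against 0.26. Of the 3 kept sets, 2 thus run against the label. Directions below are therefore those of the arrays labelled DLC1. Markers of a mesenchymal-like line were bright, 3 of 3 measured, with summed intensities of 281 to 365 over the arrays. Of 5 epithelial markers CDH1 alone was under the filter, and of 4 luminal hormone receptor markers PGR alone. The luminal sum was 5.44 to 7.15 over the arrays. ESR1, at 0.39 to 0.46 in its brightest set, barely reached the filter of 0.38. ERBB2 read 1.82 to 2.29 and GATA3 3.0 to 4.59. Some markers differed between DLC1 and vector. The mesenchymal sum was 319 against 365 with TGF-beta and 281 against 326 without it. The epithelial sum was 87.29 against 87.08 with TGF-beta and 95 against 90.12 without it, and its kept genes parted in direction. The keratin KRT19 read 16.56 against 11.59 and 16.45 against 11.21, differences of 0.51 and 0.55. KRT8 differed by -0.12 and 0.30, KRT18 by -0.11 and -0.02, and EPCAM by 0.11 and -0.22. The endothelial marker KDR, which is dim, read 0.47 against 0.96 and 0.46 against 0.74, differences of -1.03 and -0.69. PECAM1, the other kept endothelial marker and also dim, differed by -0.14 with TGF-beta and 0.22 without it. Its other kept sets gave 0.05 and 0.22 with TGF-beta and -0.05 and -0.06 without it. Of 4 adipocyte markers 3 were under the filter, and their sum was 1.04 to 1.10 on every array. Of 3 measured leukocyte markers 2 were under it, with sums of 1.58 to 2.15, and of 3 endothelial markers 1, with sums of 1.23 to 1.80. As signs of RNA quality, the middle control probe set of 18S ribosomal RNA was 0.30 higher in the array labelled DLC1 with TGF-beta and 0.85 higher without it. The gap between its 3' and 5' probe sets differed by -0.28 with TGF-beta and by -0.41 without it, that of GAPDH by 0.01 and -0.04, and that of ACTB by 0.20 and -0.15. Over the arrays the gap itself, on the log2 scale, was 2.83 to 3.26 for ACTB, 0.35 to 0.39 for GAPDH and -0.58 to -0.16 for 18S. The part of these in the differences below was not tested.

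Most of the lipid synthesis genes read higher in the arrays labelled DLC1 than in the vector arrays, by modest amounts, and in both TGF-beta states. Of the 30 kept members, 24 lay above 0 with TGF-beta and 28 without it, where 46.8% and 45.3% of all kept genes did. Their median difference was 0.22 with TGF-beta and 0.26 without it, against -0.02 and -0.03 over all kept genes. The differences with and without TGF-beta share no array but compare the same cell backgrounds, so their agreement is not a replicate check. Of the members, 24 were above 0 in both, where 36.1% of all kept genes were. ACAT2 and MVK were below 0 in both, where 42.7% of all kept genes were.

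Fewer members passed 1.5-fold. With TGF-beta 4 were higher and 0 lower, where 5.91% of all kept genes were higher and 6.71% lower. Without TGF-beta 7 were higher and 0 lower, where 5.84% were higher and 8.89% lower. HSD17B7, SREBF1, ABCA1 and SCD were higher in both states, a pattern that 3.86% of kept genes had, and 0 members were lower in both, where 5.04% of kept genes were. With a gene as the mean of all its probe sets, ABCA1 came to 0.50 with TGF-beta and the count to 3. That mean takes in an ABCA1 set under the filter, at 0.17 to 0.29, which differed by 0.21 with TGF-beta. At 2-fold, SREBF1 was the member higher with TGF-beta (1.46% of all kept genes), and SREBF1 and ABCA1 those without it (1.63%). The stretch from acetyl-CoA through mevalonate to farnesyl diphosphate held 0 of these genes in either state.

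**Figure D1:**
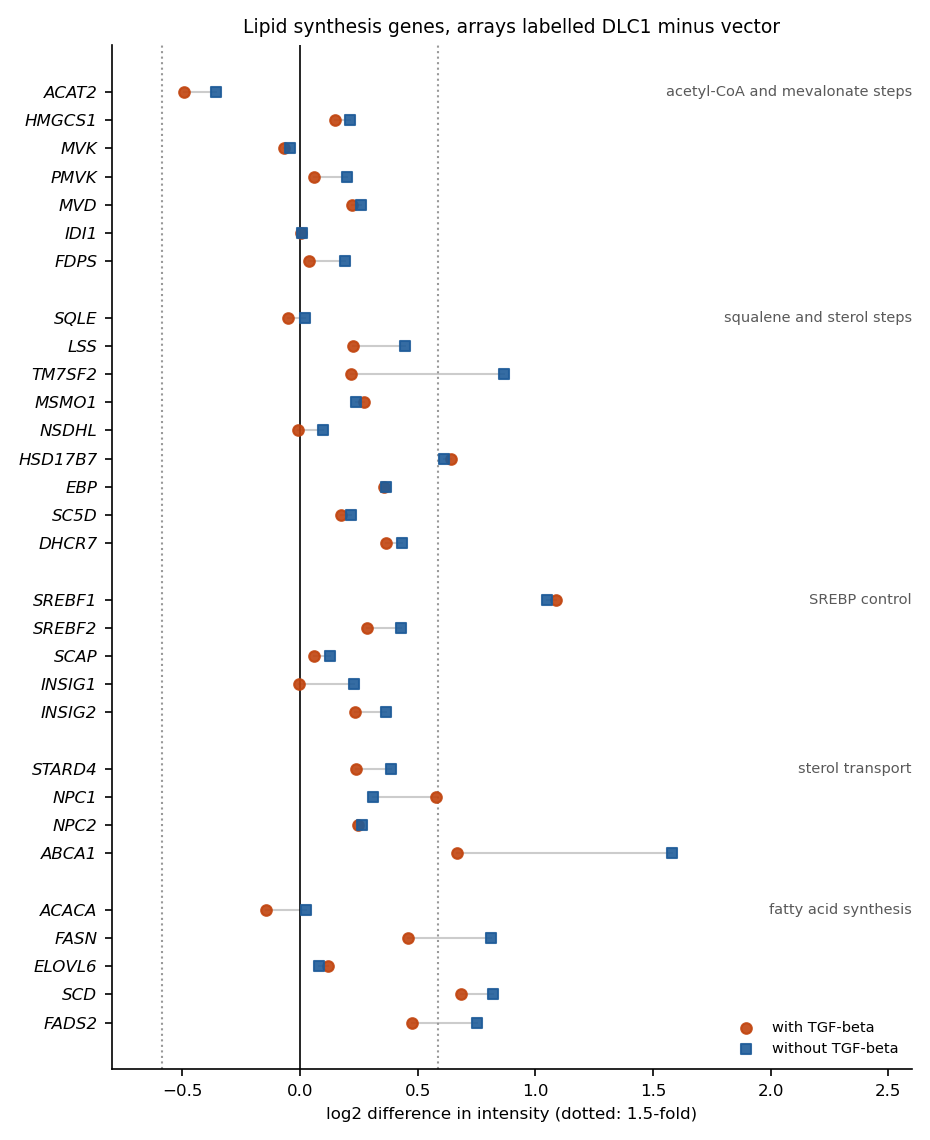
Log2 difference in intensity, arrays labelled DLC1 minus vector arrays, for the 30 kept members grouped by role, with TGF-beta (circles) and without it (squares). Each point compares 2 arrays and carries no error. Dotted lines mark 1.5-fold. Most points lie right of 0, SREBF1 lies near 1 in both states, and ABCA1 has the widest gap between states.

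**Figure D2:**
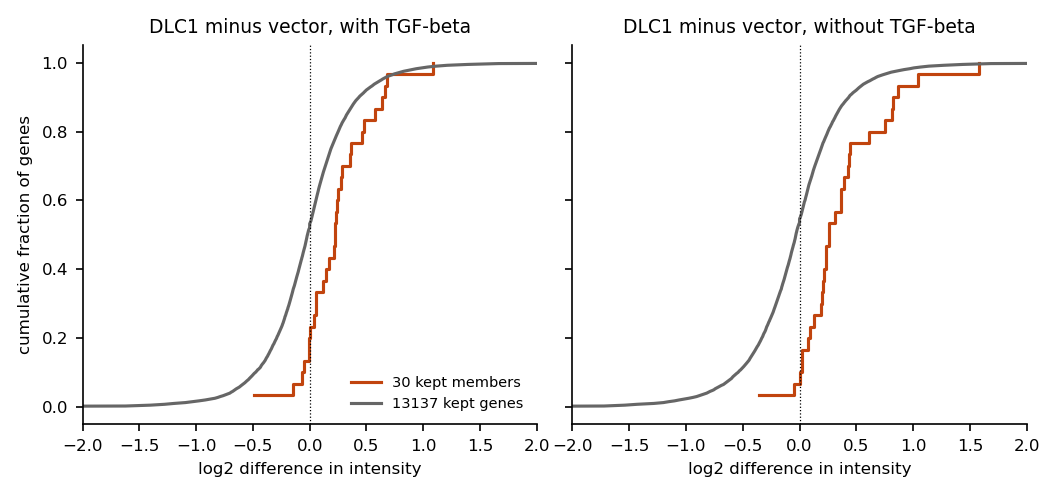
Cumulative fraction of genes (vertical axis) below a given log2 difference, arrays labelled DLC1 minus vector (horizontal axis, drawn from -2 to 2), for the 30 kept members and for all 13137 kept genes, with TGF-beta (left) and without it (right). The members' curve lies to the right over most of its length, with medians of 0.22 and 0.26.

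Among the regulators, SREBF1, which encodes SREBP-1, read 6.50 in the array labelled DLC1 against 3.06 in the vector array with TGF-beta, and 7.40 against 3.58 without it. Both arrays labelled DLC1 were above both vector arrays. The difference was 1.09 with TGF-beta and 1.05 without it, or 2.12-fold and 2.07-fold, past 2-fold in both states, as 0.868% of all kept genes were in the upward direction. By brightest probe sets it was the only such member. With the mean of the probe sets, SREBF1 came to 0.70 and 0.77, short of 2-fold, and SCD to 1.24 and 1.61, past it. The other SREBF1 probe set differed less, by 0.31 and 0.49.

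SREBF2, which encodes SREBP-2, read 1.69 against 1.39 with TGF-beta and 1.68 against 1.25 without it, differences of 0.28 and 0.43. Its other kept probe sets differed by 0.19 and 0.30 with TGF-beta and by 0.38 and 0.41 without it, so all 3 read higher in the arrays labelled DLC1 without passing 1.5-fold. SCAP, the SREBP escort, differed by 0.06 and 0.13. INSIG2, which holds SCAP back in the endoplasmic reticulum, read 10.19 against 8.68 with TGF-beta and 10.56 against 8.19 without it, differences of 0.23 and 0.37.

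INSIG1, the sterol-responsive partner of INSIG2, depended on the probe set. The brightest read 42.21 in the array labelled DLC1 against 42.37 in the vector array with TGF-beta, and 42.00 against 35.80 without it. The vector array without TGF-beta was thus the low one of the 4. The next brightest differed by 0.10 with TGF-beta and 0.54 without it. The dimmest set read 8.43 against 5.88 and 9.16 against 4.79, differences of 0.52 and 0.94.

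The promoters of both SREBP genes are shown because these genes direct the rest of the pathway, and SREBF1 was higher by more than 1.5-fold in its brightest set in both states. The windows run from 250 bases before to 50 bases after the annotated start, 5′ to 3′ on the gene's strand, from RefSeq on GRCh38.p14, and were picked after the values were seen. They lie at chr17:17836937-17837236 on the minus strand for SREBF1 and at chr22:41832855-41833154 on the plus strand for SREBF2. Capitals mark matches on either strand to the SREBP motif TCACNCCAC, to the NF-Y motif CCAAT, to the E-box CACGTG and to an LXR-type repeat, GGTNA followed by GGTCA after 5 bases, and none of these matches overlap each other.
SREBF1: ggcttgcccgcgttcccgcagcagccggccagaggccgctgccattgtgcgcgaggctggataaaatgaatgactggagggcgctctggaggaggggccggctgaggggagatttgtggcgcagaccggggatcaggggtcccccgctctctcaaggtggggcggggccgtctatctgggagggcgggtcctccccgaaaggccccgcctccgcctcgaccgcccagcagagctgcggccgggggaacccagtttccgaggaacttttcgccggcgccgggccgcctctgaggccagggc
SREBF2: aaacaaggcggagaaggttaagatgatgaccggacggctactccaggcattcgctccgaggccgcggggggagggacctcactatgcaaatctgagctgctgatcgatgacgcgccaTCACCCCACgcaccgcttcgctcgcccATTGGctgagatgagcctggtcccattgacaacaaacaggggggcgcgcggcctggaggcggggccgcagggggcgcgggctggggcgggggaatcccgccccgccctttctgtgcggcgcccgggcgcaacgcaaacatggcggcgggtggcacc

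The SREBF2 window holds the SREBP motif and, downstream of it, an NF-Y motif on the opposite strand. Windows were found for 29 of the 34 genes. The SREBP motif was in 1 of their 39 windows, that of SREBF2, and in 1.13% of all 35116 windows. The NF-Y motif was in 59% of the members' windows and in 34.6% of all windows, and the E-box in 15.4% and 7.26%. Matches are descriptions of these letters only. The SREBF1 window shown lies at the outermost annotated start of the gene and held none of the 4 motifs, which says nothing of any other start.

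The fatty acid enzymes split. FASN, the fatty acid synthase, read 3.99 in the array labelled DLC1 against 2.90 in the vector array with TGF-beta, and 5.58 against 3.18 without it. The difference was 0.46 with TGF-beta and 0.81 without it, so only the second passed 1.5-fold. The other kept set gave 0.44 and 0.51. FADS2, the desaturase that starts the making of long polyunsaturated fatty acids, read 2.17 against 1.56 with TGF-beta and 2.54 against 1.51 without it, differences of 0.48 and 0.75. Its other, dimmer set gave 0.45 and 0.32, so the call without TGF-beta rests on the brighter set. For both genes the array labelled DLC1 without TGF-beta was the highest of the 4.

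SCD, the desaturase that makes oleate from stearate, was among the brightest members. It read 104.26 in the array labelled DLC1 against 64.93 in the vector array with TGF-beta, and 97.53 against 55.26 without it. The arrays labelled DLC1 were the higher pair, with differences of 0.68 and 0.82, or 1.61-fold and 1.76-fold. The other 3 probe sets, which are dimmer, showed wider differences of 1.37 to 1.53 with TGF-beta and 1.81 to 1.94 without it. In the second brightest set the values were 21.49 against 8.32 and 20.10 against 5.25. The 4 probe sets thus shared a direction and parted by more than 1.5-fold in size.

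The SCD promoter is shown because this gene was higher by more than 1.5-fold in every probe set in both states. It lies at chr10:100346983-100347282 on the plus strand of GRCh38.p14, per RefSeq, and capitals mark 2 NF-Y motifs.
SCD: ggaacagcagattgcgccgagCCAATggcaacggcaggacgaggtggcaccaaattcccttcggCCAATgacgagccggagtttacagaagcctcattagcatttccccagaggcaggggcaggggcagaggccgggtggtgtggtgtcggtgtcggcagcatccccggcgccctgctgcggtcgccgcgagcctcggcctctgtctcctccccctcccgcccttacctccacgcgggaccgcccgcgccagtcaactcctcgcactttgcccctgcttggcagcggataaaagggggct

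ACACA, the acetyl-CoA carboxylase that commits carbon to fatty acids, read 6.31 against 6.98 with TGF-beta and 7.36 against 7.24 without it, a difference of -0.15 and 0.02. Its dimmer set gave 0.52 and 0.48. ELOVL6, which elongates palmitate, differed by 0.12 and 0.08, and its dimmest set by -0.38 and -0.12. The entry step and the elongase therefore did not pass 1.5-fold in any kept probe set, while FASN, SCD and FADS2 passed it without TGF-beta.

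**Figure D3:**
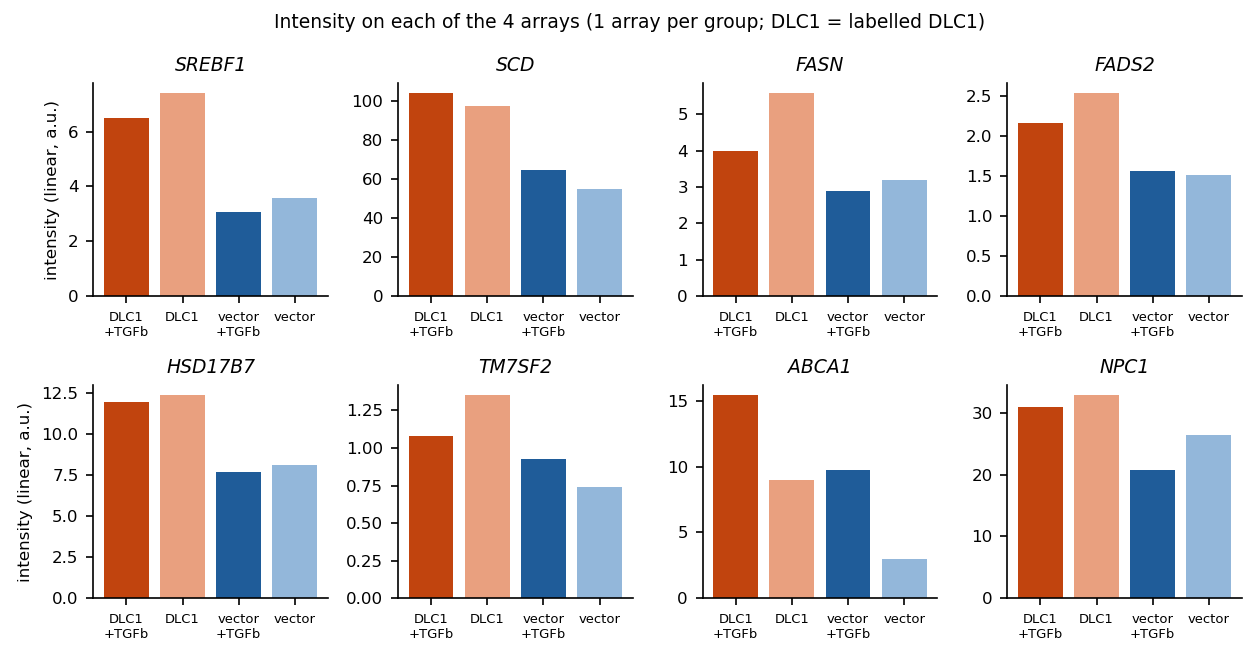
Intensity (linear scale, arbitrary units, each panel with its own axis from 0) of 8 members on the 4 arrays, with the arrays labelled DLC1 on the left and the vector arrays on the right of each panel. Each bar is 1 array. For 7 of the 8, both arrays labelled DLC1 stand above both vector arrays, whereas ABCA1 is also high in the vector array with TGF-beta.

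Among the sterol enzymes, HSD17B7, a ketoreductase of C4 demethylation, read 11.98 in the array labelled DLC1 against 7.69 in the vector array with TGF-beta, and 12.36 against 8.09 without it. The 2 pairs were nearly alike, with differences of 0.64 and 0.61. Its only probe set has a suffix, _x_at, that marks possible binding of related sequences, so a near copy of the gene could contribute. TM7SF2, a sterol C14 reductase, read 1.08 against 0.93 with TGF-beta and 1.35 against 0.74 without it. Only the difference without TGF-beta, 0.87, passed 1.5-fold, and that with TGF-beta was 0.22.

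Several enzymes of the later steps read higher by smaller amounts. LSS, which closes squalene epoxide into lanosterol, read 16.95 against 14.50 and 20.74 against 15.24, differences of 0.23 with TGF-beta and 0.44 without it. Its dimmer sets gave 0.28 and -0.09 with TGF-beta, and 0.74 and 0.68 without it. EBP, a sterol isomerase, read 9.13 against 7.14 and 10.73 against 8.33, differences of 0.35 and 0.37. Its dimmer sets parted, at 0.21, 0.07 and -0.31 with TGF-beta and 0.37, 0.63 and 0.20 without it. DHCR7, the enzyme of the last step to cholesterol, read 8.74 against 6.78 and 9.29 against 6.88, differences of 0.37 and 0.43. For these 3 genes both arrays labelled DLC1 lay above both vector arrays, a pattern seen in 20 of the 30 kept members and in 28.7% of all kept genes.

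The dimmer DHCR7 set differed by 0.53 with TGF-beta and 0.66 without it, and so passed 1.5-fold in the second. MSMO1, a methyl sterol oxidase, differed by 0.27 and 0.24, and SC5D, a sterol desaturase, by 0.17 and 0.22. NSDHL, a decarboxylating dehydrogenase of C4 demethylation, differed by -0.01 and 0.10. SQLE, the squalene epoxidase and a control point of the pathway, read 7.12 against 7.38 with TGF-beta and 6.43 against 6.33 without it, differences of -0.05 and 0.02. Its dimmest set read 0.42 against 0.23 and 0.52 against 0.24, where rounding makes the ratio coarse. Of the 9 kept sterol enzymes, 7 were above 0 with TGF-beta and 9 without it.

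The early steps had the smallest median difference of the groups by role. ACAT2, which condenses acetyl-CoA, was the member with the lowest differences, at 14.71 in the array labelled DLC1 against 20.69 in the vector array with TGF-beta and 17.19 against 22.05 without it. These were differences of -0.49 and -0.36, short of 1.5-fold, and both arrays labelled DLC1 lay below both vector arrays, as for MVK and for 33.1% of all kept genes. HMGCS1, which makes HMG-CoA, read 7.25 against 6.55 and 8.18 against 7.07 in the brighter set, differences of 0.15 and 0.21. The dimmer HMGCS1 set read 3.19 against 2.12 and 4.39 against 2.39, differences of 0.59 and 0.88 that both pass 1.5-fold.

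MVK and PMVK, the kinases of mevalonate and phosphomevalonate, differed by -0.07 and 0.06 with TGF-beta and by -0.05 and 0.20 without it. MVD, the decarboxylase, was dim at 0.56 against 0.48 and 0.55 against 0.46. IDI1, the isoprenoid isomerase, read 37.04 against 36.99 and 39.53 against 39.35, so the pairs nearly coincided. FDPS, the farnesyl diphosphate synthase, differed by 0.04 and 0.19. The 7 genes of this stretch had a median of 0.04 with TGF-beta and 0.19 without it, against 0.46 and 0.75 for the 5 kept fatty acid genes.

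**Figure D4:**
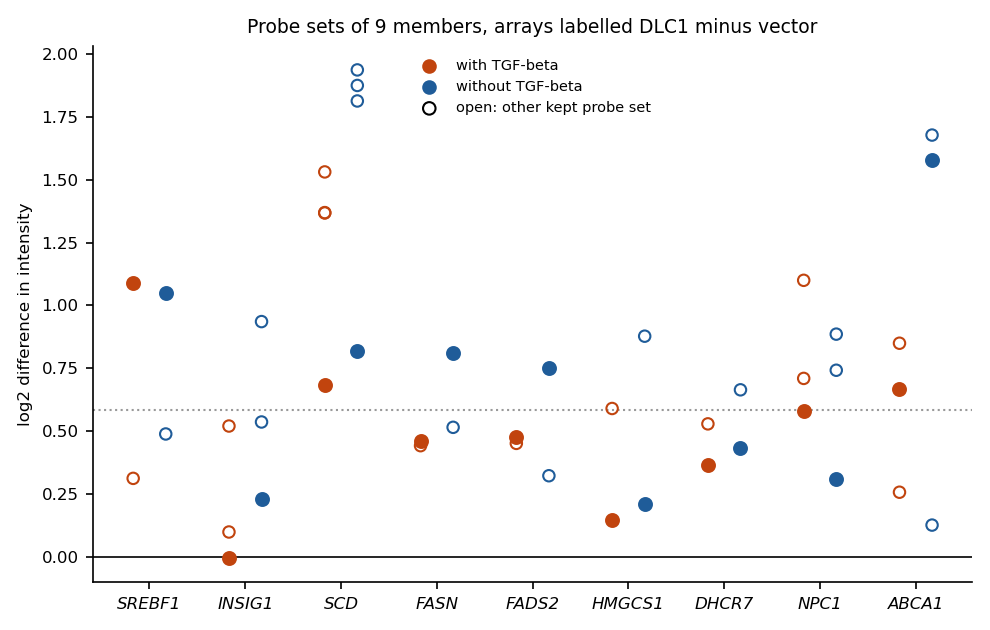
Log2 difference in intensity, arrays labelled DLC1 minus vector, for every kept probe set of 9 members, with TGF-beta (left in each column) and without it (right). Filled points are the brightest probe set, which represents the gene, and open points the others. The dotted line marks 1.5-fold. SCD shows the widest spread upward from its brightest probe set, and HMGCS1 and INSIG1 cross 1.5-fold or approach it only in dimmer probe sets.

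Over the 18 members with at least 2 kept probe sets, all sets of a gene lay above 0 for 9 with TGF-beta and for 15 without it. They parted in sign for 8 and 3 members. The matching shares over all kept genes were not computed. The SD between probe sets of a member had a median of 0.26 with TGF-beta and 0.25 without it, about the size of the members' median difference. This spread stands in for no replicate, and its source was not tested.

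The transport genes include ABCA1, which exports cholesterol to apolipoprotein A-I. Of the kept members it had the widest range over the arrays on the log2 scale. Its intensity was 15.40 in the array labelled DLC1 against 9.71 in the vector array with TGF-beta, and 8.97 against 3.0 without it. The vector array without TGF-beta was the low one, and the array with both labels the high one. The differences between DLC1 and vector were 0.67 with TGF-beta and 1.58 without it, or 1.59-fold and 2.99-fold. The next brightest set gave 0.85 and 1.68, and the third, which is dim, gave 0.26 and 0.13. ABCG1, another exporter, stayed under the filter, at 0.12 to 0.17 on the 4 arrays in its brightest set.

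The ABCA1 promoter is shown because this gene differed with both labels. It lies at chr9:104928106-104928405 on the minus strand of GRCh38.p14, per RefSeq. Capitals mark the E-box and, 69 bases before the annotated start, the LXR-type repeat on the opposite strand. That repeat was found in ABCA1 alone of the 29 members with a window and in 0.239% of all windows.
ABCA1: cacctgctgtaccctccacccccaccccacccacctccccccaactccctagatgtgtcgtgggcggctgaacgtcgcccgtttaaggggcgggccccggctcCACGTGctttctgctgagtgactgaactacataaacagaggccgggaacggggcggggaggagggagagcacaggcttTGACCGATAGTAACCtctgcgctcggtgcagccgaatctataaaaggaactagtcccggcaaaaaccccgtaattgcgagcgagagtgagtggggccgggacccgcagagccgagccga

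NPC1, which with NPC2 lets cholesterol leave lysosomes, read 30.88 in the array labelled DLC1 against 20.68 in the vector array with TGF-beta, and 32.79 against 26.44 without it. The differences were 0.578 and 0.31, the first just short of 0.585. Its dimmer kept sets passed 1.5-fold, at 1.10 and 0.71 with TGF-beta and 0.89 and 0.74 without it. NPC2, the soluble lysosomal partner, read 118.13 against 99.56 and 89.51 against 74.70, differences of 0.25 and 0.26. STARD4, a cytosolic sterol carrier, read 16.81 against 14.27 and 15.28 against 11.68, differences of 0.24 and 0.39.

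With TGF-beta against no TGF-beta, ABCA1 was the only kept member past 1.5-fold by its brightest probe set. In the arrays labelled DLC1, 1 member was higher with TGF-beta than without it and 0 were lower, where 2.31% of all kept genes were higher and 1.06% lower. In the vector arrays 1 was higher and 0 lower, where 3.14% were higher and 2.91% lower. With 30 members, these counts lie near the shares over all kept genes. That member was ABCA1 in each background, a pattern that 1.7% of kept genes had upward and 0.708% downward. At 2-fold, 0 members were higher in the arrays labelled DLC1 (0.792% of kept genes), ABCA1 was in the vector arrays (1.21%), and 0 were in both (0.624%). The members' median was -0.09 in the arrays labelled DLC1 and 0.00 in the vector arrays, against -0.01 and -0.03 over all kept genes. The gap between the 3' and 5' control probe sets of ACTB differed with TGF-beta by -0.08 in the arrays labelled DLC1 and by -0.43 in the vector arrays, and its part in these differences was not tested.

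ABCA1 read 15.40 with TGF-beta against 8.97 without it in the arrays labelled DLC1, and 9.71 against 3.0 in the vector arrays. The differences were 0.78 and 1.69, or 1.72-fold and 3.24-fold, and subtracting the vector value from that labelled DLC1 gave -0.91. Its next brightest set gave 0.90 and 1.73. Whether this exceeds the spread between cultures cannot be told with 1 array per group. Of the other transport genes, NPC2 read 118.13 against 89.51 and 99.56 against 74.70, differences of 0.40 and 0.41 that were nearly alike. STARD4 gave 0.14 and 0.29, and NPC1 -0.09 and -0.35.

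The enzymes moved less with TGF-beta, and many lay slightly below 0. ELOVL6 read 19.62 with TGF-beta against 25.79 without it in the arrays labelled DLC1, and 18.08 against 24.42 in the vector arrays, differences of -0.39 and -0.43. FASN read 3.99 against 5.58 and 2.90 against 3.18, differences of -0.48 and -0.13. EBP gave -0.23 and -0.22, MSMO1 -0.15 and -0.19, LSS -0.29 and -0.07, and SREBF1 -0.19 and -0.23. SQLE lay above 0, at 0.15 and 0.22, as did SCD, at 0.10 and 0.23. By brightest sets, all of these were short of 1.5-fold. The dimmer SCD sets gave 0.66, 0.54 and 0.45 in the vector arrays, the first past 1.5-fold. In the arrays labelled DLC1 they gave 0.10, 0.03 and 0.17. The dimmest LSS set read 0.62 against 0.93 in the arrays labelled DLC1, a difference of -0.585, which reaches 1.5-fold.

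In the arrays labelled DLC1, 22 of the 30 kept members lay below 0 with TGF-beta, where 52.1% of all kept genes did. In the vector arrays 15 did, where 54.8% did. Set against each other, the TGF-beta difference in the arrays labelled DLC1 was below that in the vector arrays for 25 of 30 members, where 46% of all kept genes were, with a median gap of -0.09. Past 1.5-fold were ABCA1 and TM7SF2 (1.29% of all kept genes), and 0 members were past it upward (1.79%). These gaps and the differences between DLC1 and vector are made from the same 4 arrays. The array labelled DLC1 without TGF-beta was the highest of the 4 for 20 of the 30 members, where it was for 23.8% of kept genes, and was the lowest for 0, where it was for 24.3%.

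**Figure D5:**
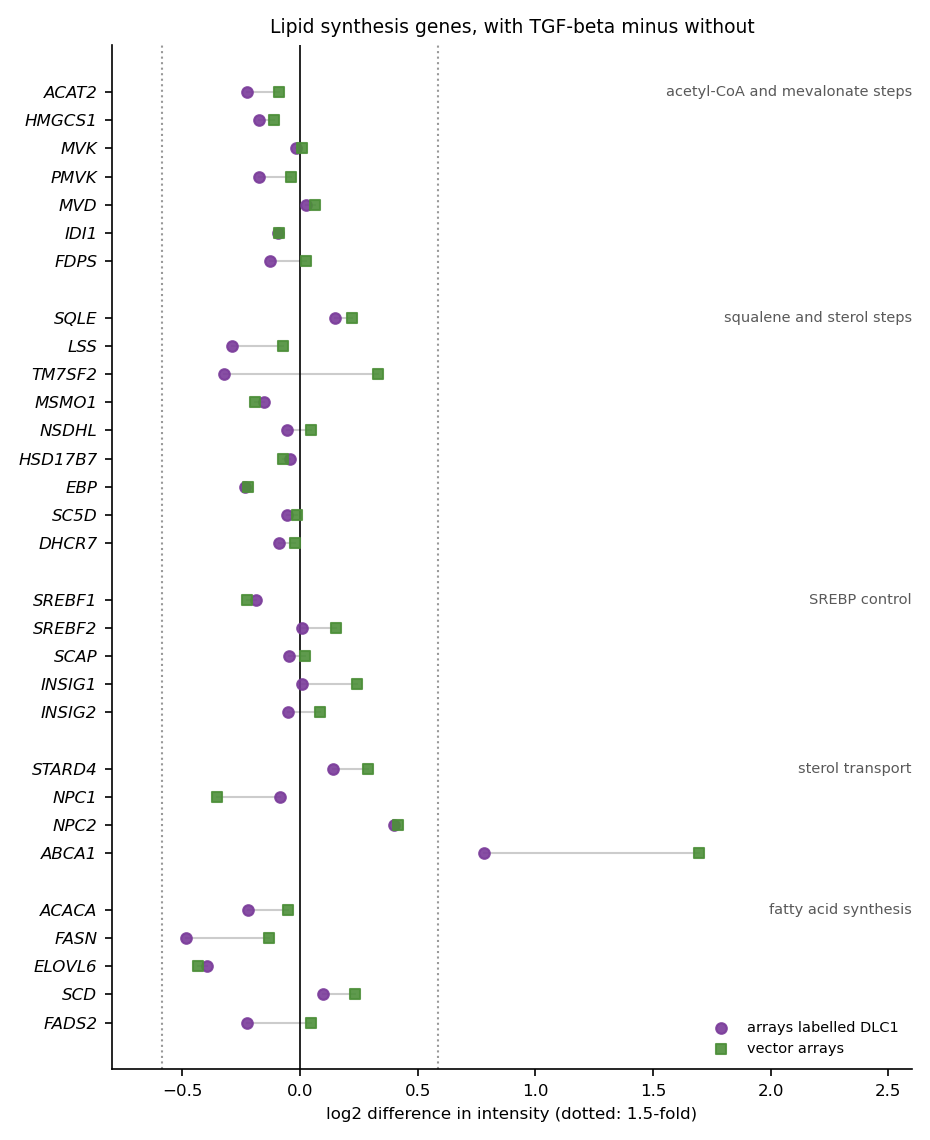
Log2 difference in intensity, with TGF-beta minus without it, for the 30 kept members grouped by role, in the arrays labelled DLC1 (circles) and the vector arrays (squares). Each point compares 2 arrays and carries no error, and dotted lines mark 1.5-fold. Only ABCA1 lies past 1.5-fold, and TM7SF2 lies on opposite sides of 0.

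A wider list of 27 genes of lipid metabolism that are not members gave 24 kept genes. Between DLC1 and vector, 3 were higher and 1 lower in both states, where 3.86% and 5.04% of kept genes were. Its medians were -0.01 with TGF-beta and 0.03 without it, with 12 and 13 of 24 genes above 0. MYLIP, an LXR-driven ubiquitin ligase that removes lipoprotein receptors, read 12.28 in the array labelled DLC1 against 5.29 in the vector array with TGF-beta, and 12.95 against 6.52 without it. Its 5 kept probe sets all shared the direction and passed 1.5-fold, at 0.73 to 1.21 with TGF-beta and 0.87 to 1.12 without it.

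ACSS2, which makes acetyl-CoA from acetate, read 1.96 against 1.29 and 2.16 against 1.28, differences of 0.60 with TGF-beta and 0.75 without it. LIPA, the lysosomal acid lipase that frees cholesterol from its esters, read 45.16 against 29.06 and 48.54 against 31.20, a difference of 0.64 in each state. ACSL4, which activates polyunsaturated fatty acids, was the lower one, at 6.02 against 9.50 and 4.80 against 8.65, differences of -0.66 and -0.85. Its dim other kept set gave -0.20 and -0.05. With TGF-beta against no TGF-beta, 0 genes of the wider list passed 1.5-fold in both backgrounds.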

How the data were processed

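The table deposited by the authors holds 1 intensity per probe set and array, on a linear scale whose divisor is not stated. RMA is named per the submitters' processing notes, with no version or settings. Arrays were grouped by their titles. Log2 was taken before each difference. Names came from the platform's annotation, and the symbols and gene IDs of all 34 members match RefSeq. No test was run, since each group has 1 array. Calls use 1.5-fold, with 2-fold as an alternative. Every member may be named. Of the wider list, only genes past 1.5-fold the same way in both states or backgrounds are named. The members and lists were chosen with earlier results of these data known. The call rule was run on simulated data with independent noise per gene and array. That noise was sized from these same 4 arrays, so the run cannot stand in for replicates. Alternatives changed the probe set, filter, pseudocount and centring, or used cyclic loess (limma 3.58.1, R 4.3.3). Other steps used Python 3.11.15, numpy 2.4.6 and pandas 2.3.3. The number of arrays limits the precision.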

Additional observations from a re-analysis of the deposited data

Results flagged for a closer look

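TM7SF2 lay on opposite sides of 0 with TGF-beta in the 2 backgrounds. It read 1.08 with TGF-beta against 1.35 without it in the arrays labelled DLC1, a difference of -0.32, and 0.93 against 0.74 in the vector arrays, a difference of 0.33. The gap between backgrounds was -0.65. With 1 array per group this difference was not tested.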

How the results depend on the processing

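The 8 other settings left 39 of 40 median differences of the members within the SD between probe sets of a gene. The exception was the TGF-beta difference in the arrays labelled DLC1, at -0.27 with arrays centred on the housekeeping list, a setting under which 1 member was lower there past 1.5-fold and 1 gene of the wider list was lower with TGF-beta in both backgrounds. That centring moved the median of all kept genes from -0.01 to -0.19. For DLC1 against vector the SD between probe sets was 0.26 with TGF-beta and 0.25 without it, about the size of the members' medians. Staying within it therefore shows little about stability. Over the settings these medians ran from 0.21 to 0.25 with TGF-beta and from 0.24 to 0.39 without it. The median gap between backgrounds ran from -0.17 to -0.07. At 2-fold, the members higher in the arrays labelled DLC1 numbered 1 with TGF-beta, 2 without it and 1 in both, and those higher after TGF-beta 0 in the DLC1-labelled pair and 0 in both backgrounds. With a gene as the mean of all its probe sets, 0 members were higher after TGF-beta in the DLC1-labelled pair or in both backgrounds. ABCA1 came to 0.57 and 1.03, with its set under the filter counted in. By that mean, 0 genes of the wider list were lower in both states. With sets ending in _s_at or _x_at avoided, that count was also 0. Counting a member only if every kept probe set passed was an alternative chosen after seeing the data. It left 2 members higher in both states, HSD17B7 and SCD, and 0 higher with TGF-beta in both backgrounds. HSD17B7 has a single probe set, so this rule could not remove it. The share of all kept genes under this rule was not computed. Of 13 single differences past 1.5-fold, 10 stayed past it under each of the 8 other settings that gave a value, and none changed sign. The other 3 were both ABCA1 differences that involve the array with both labels, lost with the mean of the probe sets (0.50 between DLC1 and vector), and FADS2 without TGF-beta, lost with that mean (0.54) and with the other set (0.32). The 2-fold and every-kept-set alternatives are not part of this count. The other kept sets of SREBF1 (0.31 with TGF-beta, 0.49 without it) and FASN (0.51 without it) fell short of 1.5-fold. HSD17B7 and TM7SF2 have a single probe set each, so settings that change the probe set could not move them. No paired analysis was possible because the labels carry no replicate numbers and each group has 1 array. Replicates could not be left out. Dim values rest on few steps of the rounding.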
